A study of Mus musculus with 36 samples.

Results

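In mouse bone marrow-derived dendritic cells, 140 of 116556 accessibility peaks on chromosomes 1 to 19 were chosen by their measured accessibility: each was at least 0.8 higher with depleted zymosan than without it in each of 3 settings. The settings were no other ligand (Z against the control, Ctrl), SeV (ZS against S) and 3',3'-cGAMP (ZcG against cG). Values were CPM, the count in a peak relative to all counts in peaks of these chromosomes without the largest-count one, put on the log2(CPM + 0.5) scale, centred on each library's median and averaged over the 2 libraries of a group. The data are ATAC-seq counts from 36 libraries in 18 groups of 2, made after 6 h of stimulation with ligands of pattern recognition receptors, given singly, as pairs and as triplets. All cells came from female C57BL/6 mice and were grown with GM-CSF, and every group used here shares that background. The remaining groups were PAM (P), LPS (L) and HMW (H), the pairs PL, PH, LH, PS, PcG and ScG, and the triplets PLH, PScG and ZScG, with S for SeV and cG for 3',3'-cGAMP. The labels do not say what the zymosan was depleted of, or whether the 2 libraries of a group came from separate mice or cultures, so p-values cover only the spread between these libraries.

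ATAC-seq uses a transposase that cuts open chromatin, so that the count in a peak measures how accessible the DNA is there. Zymosan is a preparation of yeast cell wall rich in beta-glucan, which phagocytes bind through the lectin receptor Dectin-1. Dectin-1 signals through the kinase Syk and the adaptor Card9 and is known to induce immediate-early transcription factors of the EGR family.

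A peak over a promoter shows which DNA was opened, so promoters of the RefSeq promoter table (GRCm38.p6) that chosen peaks overlap are printed here, 5′ to 3′ on the strand of the gene, as the 250 bases before the annotated start. Capitals in the first 3 mark the letters TGANTCA of AP-1, GTGGGNG of the EGR family or GAAANNGAA of the IRF family, searched on both strands. The longer EGR motif GCGTGGGCG contains the shorter one. The Gm8493 promoter (chr5:109553548-109553797, minus strand) is overlapped by the peak whose nearest protein-coding gene is Crlf2, a chain of the receptor for TSLP. The Filip1 promoter (chr9:79962082-79962331, minus strand) and the Ear6 promoter (chr14:51853518-51853767, plus strand) are overlapped by 1 chosen peak each.
Gm8493: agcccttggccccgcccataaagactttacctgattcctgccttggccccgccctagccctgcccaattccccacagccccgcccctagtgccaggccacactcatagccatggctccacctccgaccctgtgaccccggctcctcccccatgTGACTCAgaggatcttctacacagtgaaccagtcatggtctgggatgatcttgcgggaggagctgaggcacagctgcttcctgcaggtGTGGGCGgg
Filip1: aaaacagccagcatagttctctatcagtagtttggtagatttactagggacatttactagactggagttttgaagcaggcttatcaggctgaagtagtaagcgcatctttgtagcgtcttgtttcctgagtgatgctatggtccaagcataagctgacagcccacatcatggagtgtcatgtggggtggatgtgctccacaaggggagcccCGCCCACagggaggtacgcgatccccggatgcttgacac
Ear6: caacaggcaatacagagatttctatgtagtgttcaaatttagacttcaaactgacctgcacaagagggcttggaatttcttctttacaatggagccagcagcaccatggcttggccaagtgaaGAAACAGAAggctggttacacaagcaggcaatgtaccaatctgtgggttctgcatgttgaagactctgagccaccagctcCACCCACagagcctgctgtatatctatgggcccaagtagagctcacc
The promoters of Hspa1a (chr17:34972157-34972406, minus strand) and Hspa1b (chr17:34959239-34959488, minus strand), both genes of the inducible Hsp70 chaperone, are shown because a chosen peak lies inside each gene, though neither peak overlaps the promoter. Capitals in these mark the heat shock factor letters GAANNTTC, a motif added after values were seen. Both promoters also hold 1 match to the short EGR letters, left in lower case here.
Hspa1a: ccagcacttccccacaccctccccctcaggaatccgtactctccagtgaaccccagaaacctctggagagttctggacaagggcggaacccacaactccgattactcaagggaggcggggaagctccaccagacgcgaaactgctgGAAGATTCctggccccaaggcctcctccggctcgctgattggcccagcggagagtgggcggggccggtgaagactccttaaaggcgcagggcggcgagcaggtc
Hspa1b: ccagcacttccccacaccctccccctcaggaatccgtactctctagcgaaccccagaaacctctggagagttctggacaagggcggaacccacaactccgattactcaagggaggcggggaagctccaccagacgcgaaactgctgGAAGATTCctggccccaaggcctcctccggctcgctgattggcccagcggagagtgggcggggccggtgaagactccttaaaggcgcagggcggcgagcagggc
Both Hsp70 promoters share 247 of 250 bases, so how reads were divided between these near-identical copies is uncertain and their values are not independent. Of 31396 RefSeq promoters of this length, 6.77% hold the AP-1 letters, 28.2% the short EGR letters, 7.14% the IRF letters and 6.73% the heat shock letters. A match describes the letters only.

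The libraries held 19097027 to 39977088 counts in peaks, of which 1 mitochondrial peak took 44.1% to 63.1%. On chromosomes 1 to 19 the largest-count peak took 13.6% to 28.8% of the counts. The other peaks of these chromosomes held the 5973882 to 18387733 counts used for the CPM. The chosen peaks were thinly covered, with a median count per library from 6.5 in Ctrl to 32.75 in PS, and all together they held 0.0228% to 0.133% of the counts used. Much of that sum came from 1 peak, with Gm39469 as its nearest protein-coding gene. It held 480 of 3898 counts in P replicate 1 and 2611 of 4914 in cG replicate 1. The mitochondrial share was 61.0% ± 1.23 (SD, n = 2) in Ctrl, 61.7% ± 1.06 in Z, 63.0% ± 0.157 in ZcG, 59.4% ± 2.97 in ScG, 58.3% ± 0.556 in ZScG and 54.6% ± 5.05 in ZS, against 44.4% to 51.6% in the other group means. Z against Ctrl and ZScG against ScG thus compare groups of like share, while ZcG against cG, ZS against S (54.6% and 47.9%), PScG against ScG and ZScG against PScG do not. Unlike too were L, at 44.4%, and PL, P and H, which are compared with it, at 51.6%, 49.5% and 51.6%, as well as PLH at 47.4% and LH at 51.6%. The part of the share in these differences was not tested. At the start sites of dendritic and myeloid genes the summed CPM was 134 to 202 by group, and at those of macrophage genes 76.8 to 119. It was 8.74 to 24.2 at those of neutrophil genes, 15.4 to 24.2 for erythroid genes, 1.90 to 7.15 for T cell genes, 2.42 to 5.31 for B cell genes and 1.63 to 4.64 for mast cell genes. In the order given, these sums covered 6, 2, 5, 5, 6, 3 and 4 genes, so they do not rank the cell types. The median CPM per gene start was 19.3 for dendritic and myeloid genes, 49.4 for macrophage genes and 0 for each other list. The part of other cell types in the results was not tested.

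The rule that chose the peaks used the 12 libraries of Ctrl, Z, S, ZS, cG and ZcG, so the differences among these groups are a description. The threshold was reached at 9240 peaks in Z against Ctrl, at 5418 in ZS against S and at 5391 in ZcG against cG, and at 140 in all 3. The last peak inside was 0.845, 0.802 and 0.968 higher in the 3 settings, and the first outside was 0.7996, 0.915 and 0.857 higher. Ranked by the smallest of the 3 differences, and leaving out peaks with a mean under 1 CPM, the peak in Hspa1a came first (2.16, 2.57 and 2.02), followed by that in Egr1, the zinc-finger transcription factor (1.70, 2.08 and 1.62). The median centred level of the 140 peaks was -1.27 in Ctrl, -1.10 in cG and -1.05 in S, and -0.003 in Z, -0.04 in ZcG and 0.16 in ZS.

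The 12 groups outside the rule all lay between those extremes. Among them ZScG had the highest median level, -0.07, followed by PLH at -0.15, PcG at -0.22, PH at -0.25 and PScG at -0.34. L had the lowest, at -0.66, followed by H at -0.57 and ScG at -0.52. P stood at -0.49. The order from the highest was ZScG, PLH, PcG, PH, PScG, PS, PL, LH, P, ScG, H and L. Taken by the median in each library, the neighbours PLH and PcG, PcG and PH, PH and PScG, PS and PL, and H and L overlapped, and the other neighbours did not. Both ZScG libraries (-0.06 and -0.04) lay above both PLH libraries (-0.20 and -0.17) and both ScG libraries (-0.46 and -0.34). Both ScG libraries lay above those of P (-0.62 and -0.48), against the order of the group medians. Each peak's highest group was ZScG for 30 peaks, Z for 27, ZS for 23, PH for 13 and P for 12.

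**Figure D1:**
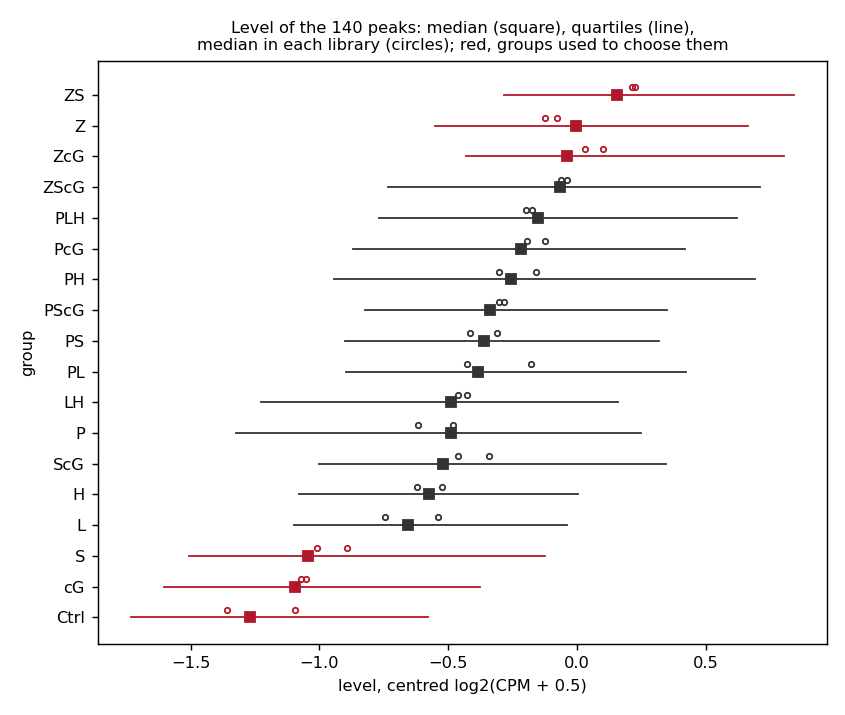
Median centred log2(CPM + 0.5) level of the 140 peaks in each group (squares), the quartiles over peaks (lines) and the median in each library (circles), with the 6 groups that chose the peaks in red. ZScG, at -0.07, is the highest of the 12 groups the rule did not use, and L, at -0.66, the lowest.

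Over Ctrl, whose libraries the rule used, the median of the 140 peaks was 0.64 with H, 0.59 with L and 0.59 with P. The 0.8 line was reached by 59 peaks with H (background over all peaks 8.61%), 55 with L (12.9%) and 54 with P (12.1%). In the triplets these were 84 with PLH (15.8%), 91 with ZScG (17.2%) and 82 with PScG (18.2%). Low values in Ctrl are built into the choice, so nothing is read from these counts.

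Directly compared, P and H split the 140 peaks in both directions. Fitted with edgeR over all 119464 tested peaks, 17 were higher in P than in H and 18 lower at an adjusted p under 0.05, where 7.18% and 4.95% of all peaks were called. The peaks higher in P were 12.1% of the 140. The median over the 140 was -0.08, with 66 above 0, and the sign of that median changed between settings (-0.27 to 0.12). Without H replicate 1 the total called was 19 and without H replicate 2 it was 21.

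The peak inside Hspa1a (chr17:34970263-34971115) held 0.496 and 0.567 CPM in P, 1.44 and 1.95 in L and 2.49 and 2.45 in H. P was below L and H in both libraries, and the groups did not overlap. On the log2 scale the peak fell by 2.19 ± 0.548 (SE) in P against H, with an adjusted p of 0.00207 by edgeR that stayed under 0.05 without any 1 of the 4 libraries (0.0134 to 0.0349). The peak in Egr1 (chr18:34862549-34863117) held 0.595 and 0.473 CPM in P, 1.83 and 1.01 in L and 2.74 and 1.67 in H. It followed the same order and fell by 2.05 ± 0.579 in P against H (edgeR adjusted p = 0.00798), a call lost without H replicate 1 (adjusted p = 0.168) or P replicate 2 (0.106). A peak in Atg2a (chr19:6248236-6249261), a lipid transfer protein of autophagosome formation, held 1.19 and 1.04 CPM in P, 5.01 and 2.67 in L and 5.80 and 3.34 in H, and fell by 2.06 ± 0.414 in P against H (edgeR adjusted p = 8.03e-05). The largest called fall was at a peak in the predicted gene LOC108167320 (-2.8, edgeR adjusted p = 0.0013), which held 0 and 7 counts in P. Another peak at LOC108167320 differed by -2.19 (edgeR adjusted p = 0.00421). Each of these calls was lost without 1 of the 4 libraries. Also lower in P than in H were the peaks in Cirbp, a cold-inducible RNA-binding protein (-2.10), and Gorab, a Golgi protein (-2.39). The Cirbp call was lost without P replicate 1 (0.105), and that of Gorab without H replicate 2 (0.279) or P replicate 2 (0.329).

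The other direction was led by Itgb8, the integrin beta-8 chain that activates latent TGF-beta. Its peak (chr12:119209318-119209808) held 8.23 and 7.66 CPM in P, 2.41 and 1.37 in L and 1.49 and 1.11 in H. P stood above every other group at this peak, and exceeded H by 2.57 ± 0.453 (edgeR adjusted p = 3.54e-06). Wwc2, a scaffold protein of the Hippo pathway, was the nearest protein-coding gene to a peak (chr8:48008994-48009458) with 6.25 and 7.47 CPM in P, 2.41 and 1.80 in L and 1.49 and 1.78 in H. P exceeded H there by 2.06 ± 0.406 (edgeR adjusted p = 4.26e-05). A peak in F13a1, the A chain of coagulation factor XIII (chr13:37007553-37008108), held 3.37 and 5.58 CPM in P, 1.73 and 0.792 in L and 1.57 and 0.556 in H. It was 1.99 ± 0.466 higher in P than in H (edgeR adjusted p = 0.00084), a call lost without H replicate 2 (0.0803) or P replicate 2 (0.0667).

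P against L gave 18 peaks higher in P and 8 lower, where 5.9% and 5.18% of all peaks were called. Leaving out 1 library lowered this total from 26 to 16 without P replicate 1, 11 without P replicate 2, 14 without L replicate 1 and 13 without L replicate 2. The largest called difference was at the peak in or near Gsx2 (3.4, edgeR adjusted p = 0.000261), which held only 5 and 1 counts in L. The peak in or near Cryzl2 was 1.92 higher in P (edgeR adjusted p = 0.00776). Each of these calls was lost without 1 of the 4 libraries, and neither peak was called in P against H. The peaks of Itgb8 (2.14), Wwc2 (1.76), F13a1 (1.91) and Atg2a (-1.69) kept the sign they had against H. Both comparisons use the same P libraries, so these signs are not independent. The Atg2a call was lost without L replicate 1 (edgeR adjusted p = 0.141) or P replicate 2 (0.0581), and that of F13a1 without L replicate 2 (0.111) or P replicate 2 (0.0834). L against H gave 3 higher and 4 lower (background 2.29% and 1.41%), or 4 in all without L replicate 1, 3 without L replicate 2, 2 without H replicate 1 and 3 without H replicate 2. Of the 140, 52 fitted values were above 0 in L against H, with a median of -0.28 against -0.004 over all tested peaks.

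**Figure D2:**
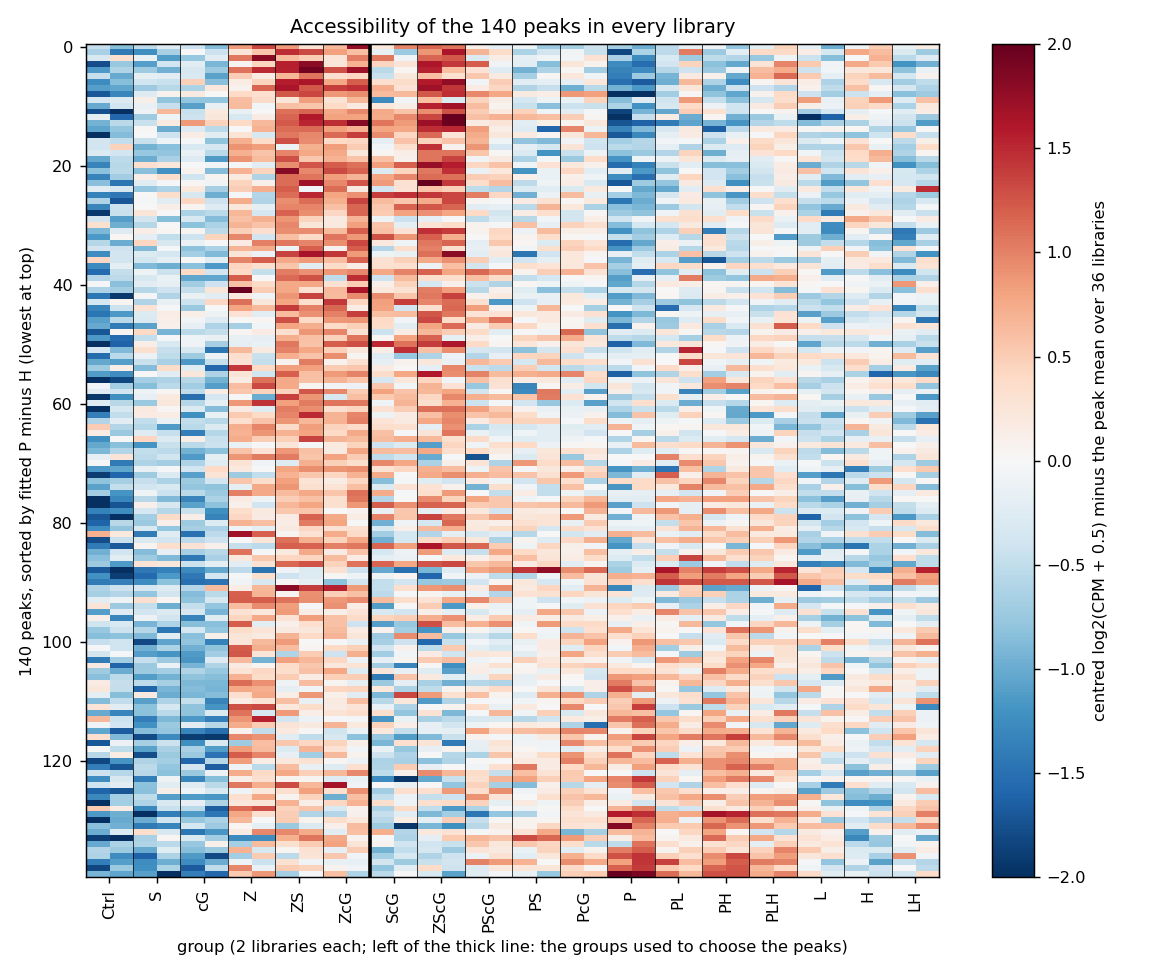
Level of each of the 140 peaks (rows) in each of 36 libraries (columns), as centred log2(CPM + 0.5) minus the peak's mean over libraries, from blue (low) to red (high), with rows sorted by fitted P minus H. The top rows are low in P and high in ZScG, and the bottom rows are high in P and PH.

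PAM added to LPS, to HMW or to both was tested in libraries that the rule did not use. Peaks called higher outnumbered peaks called lower in each. In PL against L, 11 peaks were higher and 0 lower (background 0.765% and 0.366%), 103 of 140 fitted values were above 0 and the median was 0.51. At an unadjusted p under 0.05 there were 40 peaks in either direction in this comparison. In PH against H, 22 were higher and 4 lower (background 5.27% and 2.29%), 90 were above 0 and the median was 0.37. In PLH against LH, 2 were higher and 0 lower (background 0.337% and 0.203%), 111 were above 0, the median was 0.40 and 37 peaks had an unadjusted p under 0.05. Both libraries of the group with PAM lay above both without it at 60 peaks for PL (42.9%, against 17.5% of all peaks), 62 for PH (44.3%, against 24.3%) and 56 for PLH (40.0%, against 22.0%). The count for PL against L was 4 without L replicate 1, 5 without L replicate 2, 1 without PL replicate 1 and 7 without PL replicate 2. Whether PAM acted differently on L and H was tested as an interaction, where 2 peaks were higher and 1 lower (background 0.2% and 0.754%). That total of 3 was 1 without H replicate 1 and 7 without PL replicate 1. The count for PH against H was 13 without H replicate 1, and that for PLH against LH was 0 without LH replicate 1, LH replicate 2 or PLH replicate 2.

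The peak in F13a1 was higher with PAM in all 3 comparisons. It held 5.33 and 3.09 CPM in PL, 3.59 and 4.67 in PH and 4.14 and 4.11 in PLH, against 1.15 and 1.03 in LH. All libraries with PAM in these groups lay above all those without it. The fitted differences were 1.82 ± 0.459 in PL against L, 1.86 ± 0.464 in PH against H and 1.89 ± 0.467 in PLH against LH, with edgeR adjusted p of 0.0171, 0.00294 and 0.0245. Leaving out any 1 of the 4 libraries ended the call in PLH against LH (adjusted p 0.128 to 0.256), that in PL against L was lost without L replicate 2 (0.428) or PL replicate 1 (0.372), and that in PH against H without H replicate 2 (0.161) or PH replicate 2 (0.0624). The peak nearest to Shq1, an assembly factor of small nucleolar ribonucleoproteins (chr6:100461022-100462106), held 14.8 and 14.4 CPM in PL against 4.62 and 3.60 in L, and 15.5 and 15.0 in PH against 7.38 and 5.45 in H. It rose by 1.86 ± 0.247 and 1.20 ± 0.230 (edgeR adjusted p = 1.81e-08 and 3.58e-05). Atg2a fell in PH, with 2.71 and 1.56 CPM in PH against 5.80 and 3.34 in H (-1.17 ± 0.362, edgeR adjusted p = 0.0261), a call lost without H replicate 1 (0.504) or PH replicate 2 (0.345). Its values in the other PAM additions were above 0 and did not pass, at 0.28 ± 0.349 in PL against L (edgeR adjusted p = 0.846) and 0.85 ± 0.352 in PLH against LH (0.321). In PLH it held 4.57 and 5.47 CPM, above both LH libraries (2.54 and 2.99). Hspa1a likewise held 3.45 and 3.91 CPM in PLH against 0.982 and 1.86 in LH, a difference of 1.38 ± 0.448 that did not pass (edgeR adjusted p = 0.147).

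The triplet ZScG set zymosan beside SeV and 3',3'-cGAMP together, a setting with no library in the rule. Zymosan values in it were mostly higher than in ScG, and few passed the test. Of the 140 fitted differences, 108 were above 0 (77.1%, against 48.2% of all tested peaks), with a median of 0.38 against -0.02 over all. With edgeR, 7 peaks were higher and 0 lower, where 0.324% and 0.45% of all peaks were called, and 30 had an unadjusted p under 0.05. Both ZScG libraries lay above both ScG libraries at 53 peaks (37.9%, against 16.8% of all peaks) and below at 8 (5.71%, against 23.7%). The edgeR count was 0 without ScG replicate 1, 1 without ScG replicate 2, 1 without ZScG replicate 1 and 3 without ZScG replicate 2, while DESeq2 called 3, of which 1 was shared, and gave no adjusted p for 102 of the peaks.

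The share above 0 in ZScG against ScG followed the number of settings in which zymosan reached 0.8. It was 46.5% of peaks at 0 settings (98794 peaks), 57.4% at 1 (15615), 67.5% at 2 (2007) and 77.1% at 3. The median went from -0.04 to 0.11, 0.30 and 0.38 and the share called higher from 0.188% to 0.798%, 2.30% and 5.00%. The median of the mean CPM was 2.96, 1.97, 1.90 and 2.11 in these classes.

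**Figure D3:**
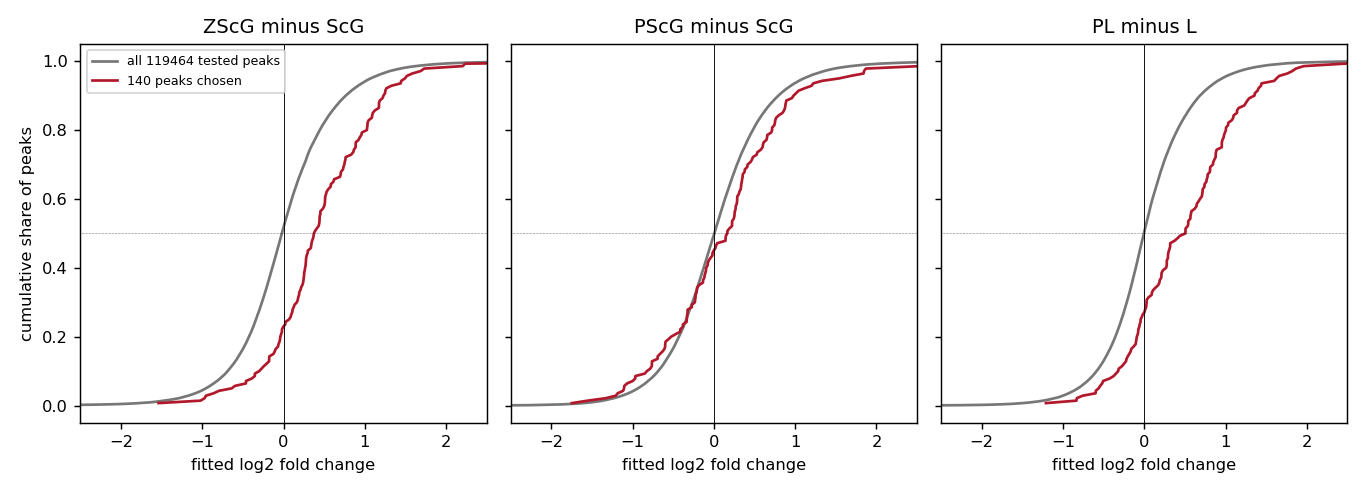
Cumulative share of peaks by fitted log2 fold change for the 140 peaks (red) and all 119464 tested peaks (grey) in 3 comparisons without a library of the rule. The red curve lies to the right of the grey in ZScG minus ScG (medians 0.38 and -0.02) and PL minus L (0.51 and -0.004), and less so in PScG minus ScG (0.17 and 0.01).

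Hspa1a and Atg2a, both low in P, were among the 7. The Hspa1a peak held 6.54 and 3.18 CPM in ZScG, 1.14 and 1.97 in ScG, and 2.69 and 1.67 in PScG. Both ZScG libraries were above the other 4, and the difference from ScG was 1.69 ± 0.466 (edgeR adjusted p = 0.049), close to the line and lost without ScG replicate 1 (0.392), ScG replicate 2 (0.0885) or ZScG replicate 1 (0.529). Atg2a held 13.3 and 15.4 CPM in ZScG, 5.26 and 5.38 in ScG, and 4.33 and 6.41 in PScG, a rise of 1.44 ± 0.320 over ScG (edgeR adjusted p = 0.0075). That call was lost without ScG replicate 1 (0.137), ScG replicate 2 (0.0715) or ZScG replicate 2 (0.0965). Shq1 held 15.8 and 11.1 CPM in ZScG, 5.04 and 7.87 in ScG, and 15.2 and 12.6 in PScG, so zymosan and PAM both stood above ScG, by 1.09 ± 0.253 and 1.01 ± 0.245 (edgeR adjusted p = 0.0117 and 0.00352). Without ScG replicate 1 neither of these calls for Shq1 passed (0.325 and 0.243), nor did the zymosan call without ZScG replicate 1 (0.296) or the PAM call without PScG replicate 1 (0.0843).

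The others called higher in ZScG than in ScG were a peak in the predicted gene LOC108167320 (2.23, edgeR adjusted p = 0.0465, or 0.0511 in the fit blocked by replicate) and, outside the naming rule and picked after their values were seen, Akap9, Chl1 and Ttll7. Akap9, a scaffold that anchors protein kinase A (chr5:4036726-4037366), held 14.3 and 8.71 CPM in ZScG, 5.61 and 3.67 in ScG and 4.21 and 5.11 in PScG. Its difference from ScG was 1.33 ± 0.354 (edgeR adjusted p = 0.04), lost without ScG replicate 1 (0.12), ScG replicate 2 (0.30) or ZScG replicate 1 (0.434). Chl1, a neural adhesion molecule nearest to a peak at chr6:103314468-103314860, held 21.4 and 21.3 CPM in ZScG against 10.1 and 10.8 in ScG. The Ttll7 peak held 0 and 1 counts in ScG against 16 and 7 in ZScG and 12 and 18 in PScG, too few in ScG for a fold. Leaving out any 1 of the 4 libraries ended the calls for LOC108167320 (0.0567 to 0.337), Chl1 (0.0893 to 0.218) and Ttll7 (0.0521 to 0.30). Egr1, at 6.14 and 5.02 CPM in ZScG against 2.86 and 1.97 in ScG, did not pass (1.22 ± 0.464, edgeR adjusted p = 0.21). At the low end were peaks in Map2k4, a kinase of the JNK pathway (-1.54, edgeR adjusted p = 0.373), and nearest to Bmp2k (-1.02, 0.541), neither of which passed.

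**Figure D4:**
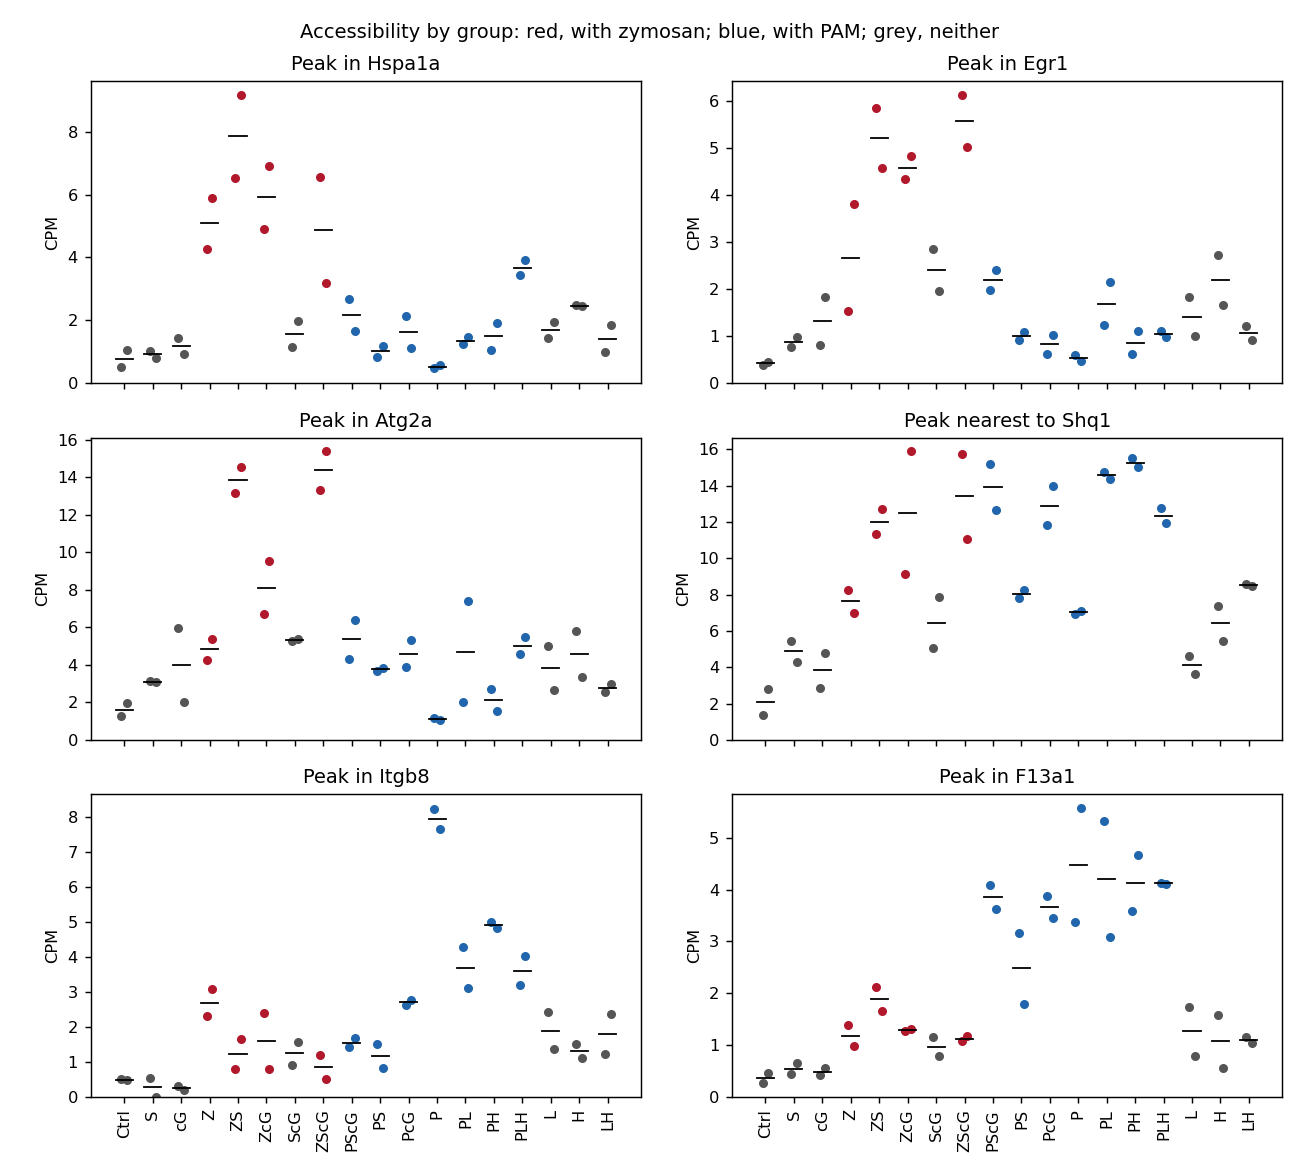
CPM in each library (points) and group mean (lines) for 6 of the peaks, with groups containing zymosan in red, PAM in blue and neither in grey. Hspa1a, Egr1 and Atg2a are low in P and high in ZScG (Hspa1a 6.54 and 3.18 CPM), and Itgb8 and F13a1 are high in P. Shq1 is high in ZScG and PScG (means of 13.4 and 13.9 CPM). Its mean of 8.53 CPM in LH, with neither, is above those in Z (7.63) and P (7.02).

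PAM added to the same pair gave calls in both directions. In PScG against ScG, 5 peaks were higher and 4 lower (background 2.11% and 2.43%), with 77 of 140 above 0 and a median of 0.17. Complete separation of the libraries was near the background in both directions, at 22.9% above (all peaks 21.1%) and 22.9% below (24.5%). The total of 9 was 5 without ScG replicate 2 and 4 without PScG replicate 2. F13a1 rose, with 4.10 and 3.62 CPM in PScG against 1.14 and 0.787 in ScG (1.87 ± 0.507, edgeR adjusted p = 0.0122), a call lost without ScG replicate 1 (0.0713), ScG replicate 2 (0.159) or PScG replicate 1 (0.0804). So did the peaks in Slc25a12, a mitochondrial aspartate-glutamate carrier (2.95), and Acaca, acetyl-CoA carboxylase (2.53), both named after their values were seen. Lower was the peak nearest to Arl6, a small GTPase of cilia, at 9.24 and 7.06 CPM in PScG against 18.6 and 13.8 in ScG (-1.10 ± 0.243, edgeR adjusted p = 0.000947), a call lost without ScG replicate 1 (0.0955) or PScG replicate 2 (0.0897).

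Zymosan in place of PAM, ZScG against PScG, gave 14 peaks higher and 4 lower, where a total of 18 came down to 11 without PScG replicate 1, 8 without PScG replicate 2, 7 without ZScG replicate 1 and 10 without ZScG replicate 2. The background was 1.79% and 3.12%. Both ZScG libraries lay above both PScG libraries at 61 peaks (43.6%, against 22.0% of all peaks). Atg2a was 1.52 ± 0.313 higher (edgeR adjusted p = 0.000428) and Akap9 1.42 ± 0.348 (0.00418). Akap9 was not called without PScG replicate 1 (0.0775) or ZScG replicate 1 (0.238). Egr1, at 1.99 and 2.42 CPM in PScG, was 1.45 ± 0.460 higher with zymosan (edgeR adjusted p = 0.0421), a call that leaving out any 1 of the 4 libraries ended (0.0944 to 0.242). Tnfsf4, the OX40 ligand, was near a peak with 15.1 and 18.9 CPM in ZScG and 8.07 and 8.64 in PScG (1.13 ± 0.240, edgeR adjusted p = 0.000616). The 4 lower ones were in or near F13a1 (-1.66), Slc25a12 (-1.77), Acaca (-1.41) and Ppfibp2 (-0.83). Leaving out any 1 of the 4 libraries ended the call for F13a1 (0.109 to 0.21) and Slc25a12 (0.0529 to 0.302), and Acaca was not called without PScG replicate 2 (0.157) or ZScG replicate 1 (0.226).

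The split seen between P and H had the same direction in this triplet comparison, which shares no library with it but does share the ligand PAM. All peaks of the whole table so called showed that direction too. For those higher in P, the 140 followed it less by share than all peaks, though not by median. All 18 peaks called lower in P than in H had a fitted ZScG minus PScG above 0, with a median of 0.90. Of the 5918 such peaks in the whole table, 71.0% were above 0, with a median of 0.27. Of the 17 called higher in P than in H, 4 were above 0 (23.5%, against 13.7% of 8581), with a median of -0.73 against -0.48. Across the 140 peaks the fitted P minus H and ZScG minus PScG had a Pearson r of -0.685 and a Spearman rho of -0.71, against -0.31 and -0.319 across all 119464 tested peaks. These points share libraries and depth, and peaks are not independent replicates.

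**Figure D5:**
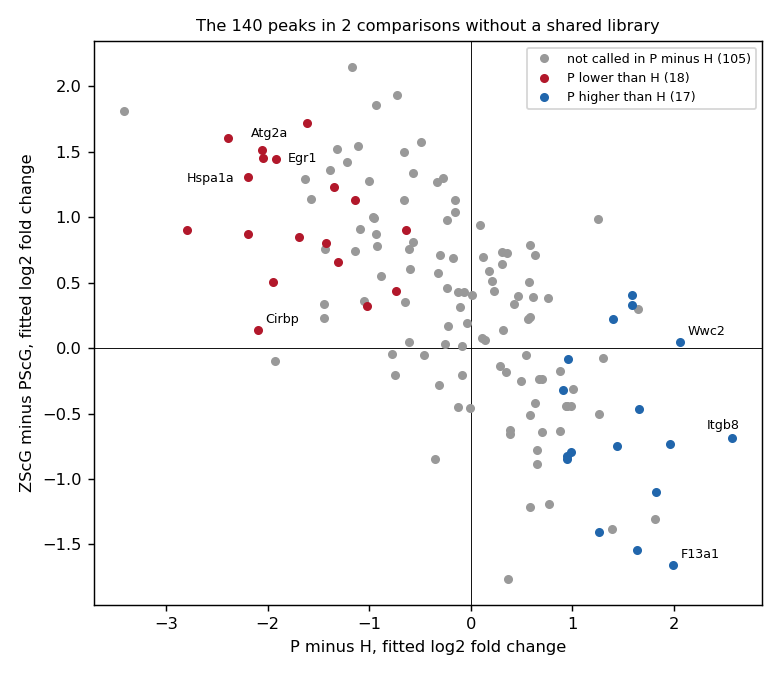
Fitted log2 fold change of ZScG minus PScG against P minus H for the 140 peaks, with peaks called lower in P in red (18), higher in P in blue (17) and not called in grey (105). All 18 red points lie above 0, against 71.0% of all peaks called lower in P. Of the 17 blue points 13 lie below 0 and 4 above (23.5%, against 13.7% of all peaks called higher in P).

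The same 2 sets were described against ScG. The 18 peaks lower in P than in H had a median of 0.76 in ZScG against ScG, 17 of them above 0 (94.4%, against 50.5% of all peaks called lower in P), and of -0.22 in PScG against ScG, 7 of them above 0 (38.9%, against 30.9%). The 17 higher in P than in H had a median of 0.26 in ZScG against ScG, 12 of them above 0 (70.6%, against 36.2% of all peaks called higher in P), and of 0.75 in PScG against ScG, 15 of them above 0 (88.2%, against 78.4%). In PScG against ScG the shares of both sets thus lay nearer to those of all such peaks than in ZScG against ScG. Itgb8, which led the peaks higher in P, held 1.20 and 0.502 CPM in ZScG, 1.4 and 1.67 in PScG and 0.915 and 1.57 in ScG. Neither triplet passed against ScG at this peak (edgeR adjusted p = 0.842 and 0.897). Fgf9, of the same set, had lower means in both triplets, at 0.903 CPM in ZScG and 0.745 in PScG against 1.42 in ScG. These comparisons share the ScG libraries.

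The position of the 140 peaks is given as counts beside all peaks, without a test. Of the 132 whose chromosome has starts in the RefSeq table, 8 (6.06%) lay within 1 kb of one, against 13.0% of all peaks, and 63.6% lay over 10 kb away, against 61.0%. Protein-coding genes held 65 (46.4%), against 59.4%. Their median width was 426 bases, against 451, and the median of their mean CPM 2.11, against 2.75. Nearest genes are given by position only. There were 6 pairs of chosen peaks that lay within 20 kb of each other, among them the peaks in Hspa1a and Hspa1b, both in Egr1, and both at LOC108167320.

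At several of these genes the peak over the start, which was not chosen, held more counts (not scaled to width) and differed less. The start-side peak of Hspa1a (chr17:34971243-34972916), which covers the promoter printed above, had a mean of 26.9 CPM in Ctrl and was 0.31, 0.53 and 0.22 higher in the 3 settings of the rule. The peak inside the gene had a mean of 0.775 CPM in Ctrl and was 2.16, 2.57 and 2.02 higher. At Hspa1b the peak inside the gene (chr17:34957328-34957684) was 1.25, 2.42 and 1.65 higher, but its difference in ZScG against ScG did not pass (1.52 ± 0.640, edgeR adjusted p = 0.28), while the start-side peak, at 39.1 CPM in ZScG against 24.5 in ScG, did (0.69 ± 0.141, edgeR adjusted p = 0.00225). At Egr1 the start-side peak had a mean of 69.98 CPM in Ctrl and was 0.41, 0.22 and 0.19 higher, against 1.70, 2.08 and 1.62 for the chosen peak. At Atg2a, the peak over the start had a mean of 29.5 CPM in Ctrl and was 0.07, 0.25 and 0.32 higher, against 1.36, 2.02 and 1.17 for the chosen peak.

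The 140 are 0.12% of the peaks on these chromosomes, so few or none would lie near any short list of genes, and nothing is read from the counts of chosen peaks here. Within 10 kb of the 25 genes of Dectin signalling lay 417 peaks, none of them among the 140, of which 1 was called higher and 2 lower in ZScG against ScG. The 15 genes of the calcium, NFAT and EGR list had 236 peaks, with 0 called in either direction and 2 among the 140, both in Egr1. At an unadjusted p under 0.05 by edgeR there were 34 of these 236, and DESeq2 called 1. Over all 119464 tested peaks these counts were 14504 and 991, and edgeR called 0.324% higher and 0.45% lower. Around 11 AP-1 genes 2 of 85 peaks were called higher and 1 lower, around 23 cytokine and mediator genes 2 of 178 and 0, and around 13 genes of the oxidase and lysosome 3 of 144 and 1. Around the receptors of the other ligands and their targets 0 of 137 were called higher and 2 lower. None of the peaks around these last 4 lists was among the 140. An unadjusted p under 0.05 by edgeR was reached by 51 Dectin, 20 AP-1, 28 cytokine, 19 oxidase and 15 receptor peaks. DESeq2 called 2, 4, 3, 2 and 1 peaks around these lists.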

How the data were processed

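The authors' deposited table holds counts of ATAC-seq reads in 119751 peaks for each of the 36 libraries, with the peaks' positions in a separate deposited list. Bowtie2 2.2.9, MACS2 1.4, bedtools and featureCounts and the build mm10 are named in the submitters' processing notes, and other steps are not given in the sources used here. From the counts, CPM was computed over chromosomes 1 to 19 without their largest-count peak (chr1:24611386-24616337), and the peaks were chosen from it. Tests used edgeR 4.0.16 in R 4.3.3 (quasi-likelihood, TMM, 1 coefficient per group, all libraries in 1 fit with 18 residual degrees of freedom) on the deposited counts without the mitochondrial peak. After the filter on low counts (minimum 10), 119464 peaks were tested and 286 dropped, and all 140 chosen peaks passed. P-values were adjusted by Benjamini and Hochberg over all tested peaks of a comparison, with calls under 0.05. The procedure was tested on simulated data. Only comparisons without Ctrl, Z, S, ZS, cG or ZcG libraries were tested.

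Named peaks were the 12 with the largest smallest difference in the rule, the 6 highest and 6 lowest in ZScG against ScG (both at a mean of at least 1 CPM), those within 10 kb of a listed gene, the 3 highest and 3 lowest called in P against L and P against H, and those at the threshold. Akap9, Chl1, Ttll7, Slc25a12, Acaca, Arl6, Tnfsf4, Ppfibp2, Skap2 and Prkag2 fall outside it. The peaks, gene lists and rules were chosen with earlier results of these data known. Genes and promoters came from RefSeq (GRCm38.p6, the coordinates of mm10), whose promoter table gave start sites for 132 of the 140. GC content and motifs within peaks were not analysed here, as no genome was used. Alternatives were DESeq2 1.42.0, other scalings and filters, the replicate block, other thresholds and each library left out.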

Additional observations from a re-analysis of the deposited data

Results flagged for a closer look

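The effect of PAM differed between its addition to L and its addition to H at 3 of the 140 peaks, by the edgeR test of that difference over all tested peaks. Of these, 2 were higher and 1 lower, where 0.2% and 0.754% of all tested peaks were called. At the peak in Skap2, an adaptor of Src family kinases, the CPM was 4.81 and 4.18 in L, 4.00 and 4.57 in PL, 1.24 and 2.00 in H and 9.02 and 5.56 in PH. Its PAM effect on L minus that on H was -2.20 on the log2 scale (adjusted p = 0.0043), not called without H replicate 1 (0.12) or PH replicate 1 (0.112). At the peak nearest to Chl1 the CPM was 10.2 and 7.57 in L, 6.86 and 14.9 in PL, 13.8 and 17.4 in H and 5.16 and 9.11 in PH. The difference was 1.43 (edgeR adjusted p = 0.0184), not called without L replicate 2 (0.159), H replicate 2 (0.139), PL replicate 2 (0.515) or PH replicate 1 (0.219). At the peak in Prkag2, a subunit of the kinase AMPK, the counts were 0 and 2 in L, 18 and 4 in PL, 20 and 12 in H and 18 and 7 in PH. Its fitted difference of 4.27 (edgeR adjusted p = 0.0182) depends on the prior count because L held so few, and was not called without L replicate 1 (0.174), H replicate 1 (0.0855), PL replicate 1 (0.364) or PH replicate 2 (0.118).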

How the results depend on the processing

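The number of chosen peaks depended on the scale and line of the rule. It was 11 with log2(CPM + 2), 346 with log2(CPM + 0.25), 619 at a line of 0.6, 39 at 1.0, 98 with the largest-count peak of chromosomes 1 to 19 kept in the CPM (all among the 140) and 144 to 195 with 1 library left out. Called peaks at 0.6, at 1.0 and by log2(CPM + 2) were 15, 4 and 4 in ZScG against ScG (7 in the report), 29, 1 and 1 in PScG against ScG (9), 62, 4 and 7 in ZScG against PScG (18), and 35, 1 and 2 in PL against L (11). They were 105, 9 and 3 in PH against H (26), 12, 0 and 0 in PLH against LH (2), 113, 11 and 6 in P against L (26), 151, 11 and 6 in P against H (35), 30, 0 and 0 in L against H (7), and 13, 0 and 0 for the PAM effect on L minus that on H (3). Among the 98 peaks, a list added after seeing the data, the calls were 5 in PScG against ScG, 1 in PLH against LH, 4 in L against H and 0 for the difference of PAM effects.

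By DESeq2, 3 peaks were called in ZScG against ScG and 3 in L against H. Fitted on the compared groups alone, 4 were called in PLH against LH and 6 for the difference of PAM effects. With 1 library left out, the lone library of its group assumed to vary like the others, called peaks ranged from 0 to 3 in ZScG against ScG, 4 to 7 in PScG against ScG, 7 to 11 in ZScG against PScG, 1 to 7 in PL against L, 13 to 20 in PH against H, 0 to 2 in PLH against LH, 11 to 16 in P against L, 19 to 26 in P against H, 2 to 4 in L against H and 1 to 7 for the difference of PAM effects. The cause of these changes was not tested, apart from the fewer libraries and peaks that the settings themselves use. Of 60 calls on named peaks, 14 were kept without any 1 library and 46 lost without at least 1, and no fitted value changed sign in any of the 721 values under other settings. The median over the 140 was above 0 in every setting run for ZScG against ScG (0.35 to 0.49), PScG against ScG (0.06 to 0.22), ZScG against PScG (0.33 to 0.45) and all PAM additions, and changed sign in P against L (-0.05 to 0.27) and P against H.

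With the replicate number as a block, the called peaks were 6 in ZScG against ScG, 8 in PScG against ScG, 18 in ZScG against PScG and 34 in P against H, and the other counts were as reported. Same-numbered libraries did not deviate together (correlations of -0.0398 to 0.0261 over 45 pairs of groups, none over 0.1). Thin counts could hide a shared deviation, so this check cannot decide whether the numbers pair the samples. The median count of a chosen peak per library was 15 in ScG and 17.5 in ZScG, which limits the precision at single peaks.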
